A study of Mus musculus with 9 samples.

Results

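Nsun3, Trmt2b, Armc5 and Uri1 are 4 mouse genes chosen by earlier results of these data, for how their transcripts differed between cells given the peptide Ang(1-7) and cells without it. Their rows were taken by gene symbol. Since the choice used those differences, each of their values that compares Ang(1-7) with another group is a description and is given without a p-value. In the comparison of Ang(1-7) with PA/OA they held ranks 3 (Nsun3), 4 (Armc5), 5 (Trmt2b) and 7 (Uri1) in order of p among 9261 genes tested. They are 4 of 10260 genes with counts in any of the 3 deposited tables, through 6 transcripts in all. The table of Ang(1-7) against PA/OA held all 4 genes, that of Ang(1-7) against control also 4, and that of PA/OA against control 3, without Trmt2b.

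RNA was sequenced from AML12, an immortalised mouse hepatocyte line, in 3 groups of 3 libraries. Control cells were untreated. PA/OA cells were kept for 24 h with 0.2 mM PA and 0.4 mM OA, taken here as palmitic and oleic acid, and Ang(1-7) cells had 100 nM of Ang(1-7) from 30 min before the same fatty acids. No group had Ang(1-7) without fatty acids or the carrier alone, so the peptide's action on unloaded cells was not measured, and fatty acids and carrier cannot be told apart. Nothing in the labels says that the libraries of a group are separate cultures, and the p-values then measure only the spread between these libraries, which may be technical.

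Both tRNA methyltransferases serve the mitochondrion. NSUN3 adds a methyl group to the cytosine at the wobble position of mitochondrial methionine tRNA, which the dioxygenase ALKBH1 then oxidises to 5-formylcytosine, so that a single tRNA can read more than one methionine codon. TRMT2B makes 5-methyluridine in mitochondrial tRNAs and in the small mitochondrial ribosomal RNA, while its relative TRMT2A does so in the cytosol. ARMC5 and URI1 both bear on RNA polymerase II. ARMC5 is the substrate adaptor of a cullin 3 ubiquitin ligase that marks the largest subunit of the polymerase, encoded by Polr2a, for destruction. URI1 is a prefoldin-like protein that works with the R2TP chaperone complex and binds the polymerase subunit encoded by Polr2e.

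A library's listed counts came to between 26567987 and 27357654 in controls, 24912692 and 26033617 in PA/OA, and 24588312 and 28704499 in Ang(1-7). Pairs of libraries from 1 group were compared by chi-square, divided by its degrees of freedom. That value lay between 15.4 and 34.0 where Ang(1-7) 2 was not in the pair, above counting noise, and between 148.3 and 250.4 where it was. Ang(1-7) 2 therefore stood apart, and the differences are also given without it. Nervous system transcripts were found in Ang(1-7) 2 and 3: of the 18 listed among 35 such markers, 17 had a count above 0 in each, against 7 in Ang(1-7) 1 and 5 to 6 in the PA/OA libraries. Summed, they reached 303 CPM (counts per 1000000 of a library's listed counts) in Ang(1-7) 2 and 258 CPM in Ang(1-7) 3, whereas Ang(1-7) 1 had 156 CPM and the PA/OA libraries between 168 and 171 CPM. Mbp, which encodes myelin basic protein, made up 109 to 138 CPM of the sum in each of these 6 libraries, and without it the sum was 193 and 120 CPM in Ang(1-7) 2 and 3, 30.9 in Ang(1-7) 1 and between 34.4 and 39.4 in the PA/OA libraries. The neurofilament gene Nefl had 923 and 477 counts in Ang(1-7) 2 and 3 and 0 in the other 4 libraries of that table. Of 15 hepatocyte markers 11 were listed, at a summed 21117 to 23828 CPM, while Ahsg, Serpina1a, Apoa2 and Fgb were not among those listed. Alb had only 80 to 550 counts and Hnf4a 104 to 179 in these 6 libraries, so each was a small part of that sum. In the comparison of PA/OA with control, Trf, Apob, Afp and Ttr had means of 653, 188, 16.9 and 3.88 CPM in PA/OA, also small parts. The list includes the keratin genes Krt8 and Krt18, and the sum was not split further. It is therefore not read as a measure of hepatocyte identity.

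Nsun3 was highest in Ang(1-7). It was counted through 1 predicted RefSeq transcript, XM_006521671.3, on the minus strand of chromosome 16. RefSeq holds 3 transcripts of the gene, 1 of them curated, and only this predicted one was listed, so the levels are of that transcript alone. Levels are given here as CPM on a scale set by trimmed mean normalization over the 6674 transcripts that all 3 tables share. Controls 1 to 3 had 325, 293 and 374 counts, or 12.1, 10.9 and 14.4 CPM. PA/OA 1 to 3 had 225, 265 and 266 counts, or 8.67, 10.2 and 10.3 CPM. Ang(1-7) 1 to 3 had 502, 578 and 495 counts, or 19.8, 21.9 and 18.4 CPM. Each Ang(1-7) library thus lay above the other 6, and each PA/OA library lay below all 3 controls. The means were 12.5 ± 1.78, 9.73 ± 0.916 and 20.0 ± 1.75 CPM (SD, n = 3), which put Ang(1-7) at 2.06 times PA/OA and 1.61 times control. In RNA from a whole culture, fewer cells with a transcript and less of it per cell cannot be told apart.

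The sequence before the Nsun3 start is shown because it holds the only matches to 8-letter motifs among the windows searched. RefSeq's table of promoters (GRCm38.p6) matched 3 of the 4 symbols, Nsun3, Trmt2b and Uri1, and the 250 bases before each annotated start were searched on both strands for 7 strings: CCGGAAGT (ETS factors), CTCGCGAG (BANP), GGGCGG (the GC box of Sp factors), CCAAT (NF-Y), CGCATGCG (NRF1), CACGTG (E-box) and TGACGTCA (CRE). The Nsun3 window, chr16:62786717-62786966 on the minus strand, holds 1 CTCGCGAG and 1 CCGGAAGT, in capitals here, with no overlap:
Nsun3 promoter: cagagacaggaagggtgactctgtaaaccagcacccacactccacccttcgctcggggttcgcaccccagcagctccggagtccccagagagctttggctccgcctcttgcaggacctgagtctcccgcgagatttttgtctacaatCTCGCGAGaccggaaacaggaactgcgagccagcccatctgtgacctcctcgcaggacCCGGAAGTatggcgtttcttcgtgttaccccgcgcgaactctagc
CTCGCGAG occurs in 0.76% and CCGGAAGT in 2.88% of 32851 promoter windows of the same length. The window is 60.0% G and C, against a median of 52.4% over all windows. A match is a stretch of letters, and binding was not measured.

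**Figure D1:**
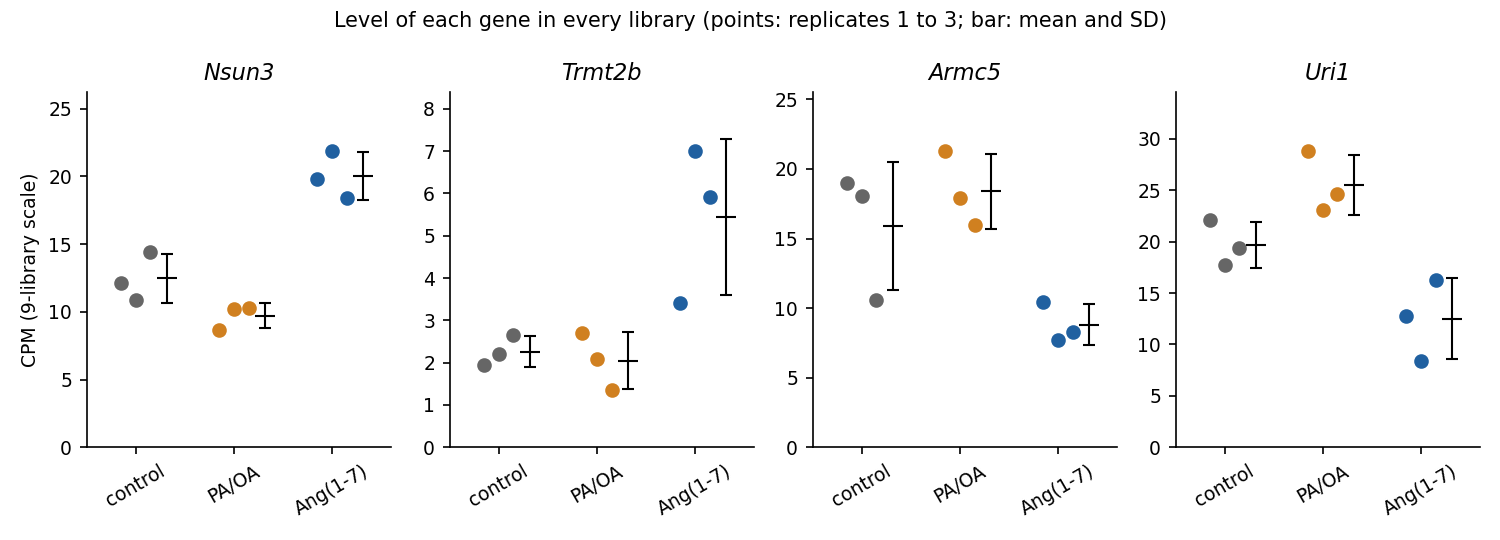
Levels of the 4 genes in each of the 9 libraries. The y axis of each panel is CPM on the scale shared by all 9 libraries and starts at 0, points are replicates 1 to 3 of a group, and the black bar is the mean with its SD. For Nsun3 and Trmt2b the 3 Ang(1-7) libraries lie above the other 6 and for Armc5 and Uri1 below them, by the narrowest margin for Armc5 (10.5 CPM in Ang(1-7) 1 and 10.6 in control 3).

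Trmt2b was also highest in Ang(1-7), at low counts. The gene lies on the minus strand of the X chromosome, and its most counted transcript, NM_001167995.1, is a short form with 4 exons, 822 bases and 378 coding bases. Of its bases, 299 are in no other curated transcript of the gene. Controls 1 to 3 had 52, 59 and 69 counts of this form, or 1.94, 2.2 and 2.66 CPM. PA/OA 1 to 3 had 70, 54 and 35 counts, or 2.70, 2.09 and 1.35 CPM. Ang(1-7) 1 to 3 had 86, 185 and 159 counts, or 3.40, 7.00 and 5.90 CPM. Control and PA/OA overlapped, and the Ang(1-7) libraries lay above both but spread widely, with Ang(1-7) 1 nearest to the rest. The means were 2.26 ± 0.366 in control, 2.05 ± 0.674 in PA/OA and 5.43 ± 1.84 CPM in Ang(1-7) (SD, n = 3), a ratio of 2.66 to PA/OA and 2.40 to control.

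The table of both fatty acid groups lists 2 further Trmt2b transcripts. Another curated transcript, with 13 exons and 1479 coding bases, is listed in no table, so sums and shares here cover the listed transcripts only. NM_001167994.1 has 14 exons, 3128 bases and 1479 coding bases, and 76 of its bases are in no other curated transcript. It had 35, 27 and 26 counts in Ang(1-7) 1 to 3. In PA/OA 1 to 3 it had 0, 0 and 7 counts, and a count of 0 allows up to 0.115 and 0.120 CPM in the first 2 of these libraries. This long form was thus at 0 in the first 2 PA/OA libraries and counted in every Ang(1-7) library, with its highest count in Ang(1-7) 1. The predicted transcript XM_011247734.2 had 4, 11 and 0 counts in PA/OA 1 to 3, whereas Ang(1-7) 1 to 3 had 12, 0 and 20 counts, and these ranges overlap. Summed over the 3 transcripts, PA/OA 1 to 3 had 74, 65 and 42 counts and Ang(1-7) 1 to 3 had 133, 212 and 205. On the scale of that table the sums are 2.34 ± 0.638 CPM in PA/OA and 6.95 ± 1.49 in Ang(1-7) (SD, n = 3). Of the listed counts the short form took 159 of 181, or 87.8%, in PA/OA and 430 of 550, or 78.2%, in Ang(1-7). By library its share was 94.6% (95% Wilson interval 86.9 to 97.9), 83.1% (72.2 to 90.3) and 83.3% (69.4 to 91.7) for PA/OA 1 to 3. For Ang(1-7) 1 to 3 it was 64.7% (56.2 to 72.3), 87.3% (82.1 to 91.1) and 77.6% (71.4 to 82.7), so the groups overlap in this share. In the authors' deposited table the log2 fold change was 1.42 for the short form, 3.63 for the long form and 1.08 for the predicted one. How reads common to several transcripts were assigned is not given in the sources used here. These intervals and limits cover counting error only, since no molecular identifiers tell whether reads came from separate molecules.

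**Figure D2:**
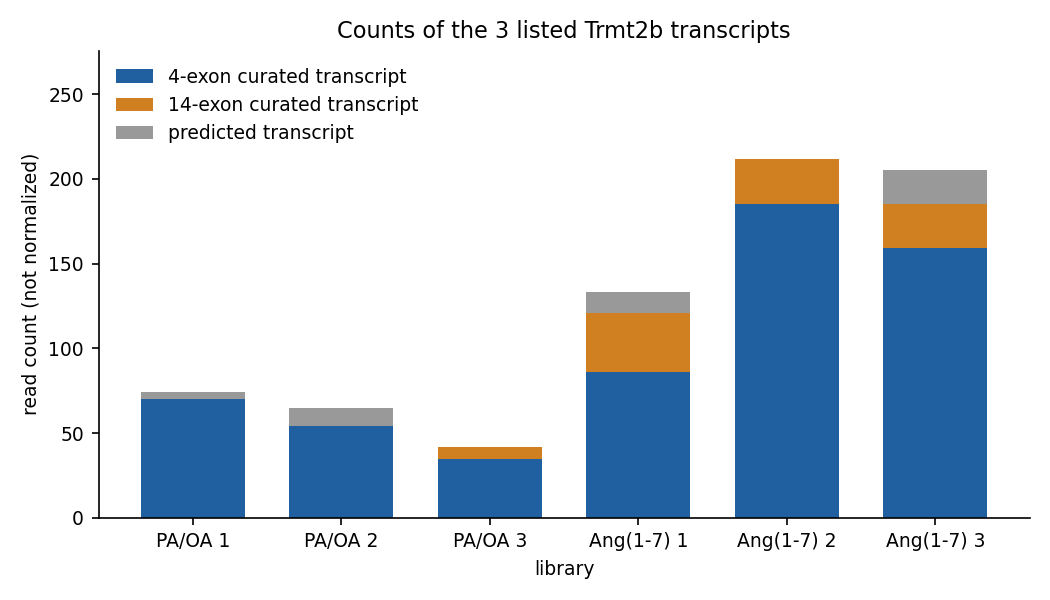
Read counts of the 3 listed Trmt2b transcripts in the 6 libraries of both fatty acid groups. The y axis is the count, not normalized, and each bar stacks the 4-exon form, the 14-exon form and the predicted transcript. The bars reach 42 to 74 counts in PA/OA and 133 to 212 in Ang(1-7), and the 14-exon form has 26 to 35 counts in each Ang(1-7) library and 0 to 7 in PA/OA.

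The Trmt2b window is shown as a contrast in composition to that of Nsun3, its fellow mitochondrial methyltransferase. It lies at chrX:134276985-134277234 on the minus strand, is 44.4% G and C, and holds none of the 7 strings, so it is printed without capitals:
Trmt2b promoter: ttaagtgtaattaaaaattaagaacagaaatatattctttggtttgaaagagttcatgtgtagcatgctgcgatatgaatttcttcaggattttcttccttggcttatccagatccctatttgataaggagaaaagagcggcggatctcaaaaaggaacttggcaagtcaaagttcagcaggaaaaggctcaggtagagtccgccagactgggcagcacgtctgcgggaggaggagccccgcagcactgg
The absence of these letters from the window says nothing of which factors bind there.

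Armc5 was lowest in Ang(1-7). It was counted through its 1 RefSeq transcript, NM_146205.2, which has 6 exons, 3834 bases and 2778 coding bases on the plus strand of chromosome 7. Controls 1 to 3 had 510, 486 and 275 counts, or 19.0, 18.1 and 10.6 CPM. PA/OA 1 to 3 had 552, 464 and 413 counts, or 21.3, 17.9 and 15.9 CPM. Ang(1-7) 1 to 3 had 265, 203 and 223 counts, or 10.5, 7.68 and 8.28 CPM. All Ang(1-7) libraries lay below the PA/OA range, but control 3 came close to Ang(1-7) 1, well below the other controls. The means were 15.9 ± 4.61, 18.4 ± 2.69 and 8.81 ± 1.47 CPM (SD, n = 3), so PA/OA stood at 2.09 and control at 1.80 times Ang(1-7).

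Exons of Armc5 share 690 bases with 9130023H24Rik, a gene on the opposite strand, and the strand setting of the counting is not given in the sources used here, so reads from the shared bases cannot be assigned with certainty. The neighbour had 35.4 ± 4.04 CPM in PA/OA and 34.3 ± 6.35 in Ang(1-7) (SD, n = 3), a log2 difference of −0.05 ± 0.20 (SE, adjusted p = 0.982 in edgeR's quasi-likelihood test). It was not called against control either, with log2 differences of 0.11 ± 0.18 for PA/OA (edgeR adjusted p = 0.805) and 0.05 ± 0.23 for Ang(1-7) (edgeR adjusted p = 0.933). Over all genes edgeR called 0.00%, 5.05% and 0.245% in these comparisons, in that order, so nothing is read from the missing calls. The part of shared reads in the Armc5 difference was not tested. Exons of Nsun3, Trmt2b and Uri1 overlap those of no other annotated gene.

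Uri1 was lowest in Ang(1-7) and highest in PA/OA. It was counted through NM_011274.5, with 11 exons, 3441 bases and 1593 coding bases on the minus strand of chromosome 7. That is the only one listed of its 4 RefSeq transcripts, and the only curated one. Controls 1 to 3 had 593, 475 and 502 counts, or 22.1, 17.7 and 19.3 CPM. PA/OA 1 to 3 had 747, 598 and 637 counts, or 28.8, 23.1 and 24.6 CPM. Ang(1-7) 1 to 3 had 322, 223 and 439 counts, or 12.7, 8.43 and 16.3 CPM. The 3 groups did not overlap, although Ang(1-7) 3 at 16.3 CPM came close to control 2 at 17.7. The means were 19.7 ± 2.22, 25.5 ± 2.94 and 12.5 ± 3.94 CPM (SD, n = 3), so PA/OA stood at 2.04 and control at 1.58 times Ang(1-7).

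The Uri1 window is shown for its cluster of GC boxes. It lies at chr7:38019553-38019802 on the minus strand, is 60.4% G and C, and holds 3 GGGCGG and 1 CCAAT, read on either strand and in capitals, with no overlap:
Uri1 promoter: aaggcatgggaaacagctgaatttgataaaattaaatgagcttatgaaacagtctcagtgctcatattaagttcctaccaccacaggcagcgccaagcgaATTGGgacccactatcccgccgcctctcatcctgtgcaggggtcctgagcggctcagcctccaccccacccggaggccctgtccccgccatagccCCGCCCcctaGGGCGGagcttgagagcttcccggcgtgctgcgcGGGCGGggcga
Both strings are common, GGGCGG in 32.74% and CCAAT in 33.85% of the 32851 windows. The other 3 strings, CGCATGCG (1.55% of windows), CACGTG (6.02%) and TGACGTCA (1.55%), are in none of the 3 windows.

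All 3 Ang(1-7) libraries lay above the other 6 in 2.61% of 6827 transcripts, as for Nsun3 and the short Trmt2b form, and below them in 3.5%, as for Armc5 and Uri1. Nothing is read from these shares, since the genes were selected on such differences. In edgeR's fit of gene sums, Ang(1-7) minus PA/OA was 1.03 ± 0.22 for Nsun3, 1.57 ± 0.38 for Trmt2b, −1.07 ± 0.25 for Armc5 and −1.04 ± 0.27 for Uri1 on the log2 scale (difference ± SE, 3 libraries a group). EdgeR called 0 of 9261 genes (0.00%) in this comparison, with 236 (2.55%) at an unadjusted p under 0.05, and DESeq2 called 5 (0.0487% of its 10259), which is likewise not read for genes chosen on this contrast. The estimated biological coefficient of variation was 44.3% here, 22.4% in PA/OA against control and 30.7% in Ang(1-7) against control. The 44.3% is of a wider gene set, 9261 genes against 6213 and 6134. Its transcripts went down to a mean of 5.17 counts, those of the other tables only to 56.8 and 59.5. How far transcripts of low count raised the 44.3% was not tested. Ang(1-7) minus control was 0.67 ± 0.22 for Nsun3, 1.25 ± 0.44 for Trmt2b, −0.86 ± 0.30 for Armc5 and −0.66 ± 0.29 for Uri1, in a table where edgeR called 15 genes (0.245%), 915 (14.9%) had an unadjusted p under 0.05 and DESeq2 called 233 (3.79%). For Trmt2b the value against control is of the short form alone, the only form listed there. Taken singly, that form had an Ang(1-7) minus PA/OA difference of 1.40. Both comparisons use the same Ang(1-7) libraries.

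The comparison of PA/OA with control holds no Ang(1-7) library and is the only one whose test is given for these 4 genes. It asked whether the fatty acids, without the peptide, moved them. In edgeR's quasi-likelihood test (Benjamini-Hochberg adjustment over all genes), 5.05% of 6213 genes passed (2.24% lower and 2.82% higher in PA/OA) and none of the 3 listed here did. Before adjustment 1204 genes (19.4%) had a p under 0.05, and DESeq2 called 537 (8.64%). Nsun3 had a log2 difference of −0.35 ± 0.26 (SE, adjusted p = 0.506), with every PA/OA library below every control, as in 11.6% of genes. Uri1 had a log2 difference of 0.38 ± 0.19 (SE, adjusted p = 0.262), with every PA/OA library above every control, as in 12.2% of genes. Armc5 had 0.22 ± 0.24 (SE, adjusted p = 0.687), its groups overlapped, and without control 3 the difference was −0.00112. The unadjusted p-values in edgeR's test were 0.193, 0.0512 and 0.363, so none was under 0.05 before adjustment, and DESeq2 called none of the 3 either. Trmt2b was not tested: its short form averaged 56.5 counts over these 6 libraries, and the lowest mean of a transcript in this table was 56.8. PA/OA thus had the lowest mean of the 3 groups for Nsun3 and Trmt2b and the highest for Armc5 and Uri1, but no listed gene passed the test of PA/OA against control. That comparison and the one of Ang(1-7) with PA/OA share the PA/OA libraries. Choosing genes with a large difference from PA/OA favours PA/OA at the far end, so nothing is read from this order of means.

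Leaving out Ang(1-7) 2, the library that stood apart, kept each direction. Without it, Ang(1-7) minus PA/OA was 0.98 for Nsun3, 1.47 for Trmt2b, −0.97 for Armc5 and −0.81 for Uri1 on the log2 scale. Against control the differences were 0.62 for Nsun3, 1.04 for the short Trmt2b form, −0.76 for Armc5 and −0.44 for Uri1, and that of Uri1 was the only one to shrink by over 1.5 times. Ang(1-7) 1, whose nervous system markers summed to less than in each PA/OA library and which had 12 counts of the astrocyte gene Gfap against 888 and 378 in Ang(1-7) 2 and 3 and 0 in each PA/OA library, had values outside the range of the other 2 groups for all 4 genes: 19.8 CPM for Nsun3, 3.40 for Trmt2b, 10.5 for Armc5 and 12.7 for Uri1. For Trmt2b this library was the lowest of its group, and for Armc5 the highest, in each case the nearest to PA/OA. For Armc5 it lay barely below control 3, at 10.6 CPM. The 4 genes were chosen on differences that include these Ang(1-7) libraries. The kept directions and the place of Ang(1-7) 1 are therefore no separate evidence. Other cell types' markers were summed in the same way. Of 6 blood markers 2 were listed, with 4.01 CPM in Ang(1-7) 2, 2.44 CPM in Ang(1-7) 3 and at most 0.159 CPM elsewhere in that table. Of 12 stellate and endothelial markers 5 were listed, with 17.9 CPM in Ang(1-7) 2, 12.6 CPM in Ang(1-7) 3 and between 5.98 and 9.18 CPM elsewhere. Of 10 macrophage markers 6 were listed, between 692 and 828 CPM in every library, of which Cd14 made up 663 to 803 CPM. Counts were above 0 for all 6 in Ang(1-7) 2 and in Ang(1-7) 3, but for 4 of 6 in the other 4 libraries of that table, where the complement genes C1qa and C1qb were at 0, and without Cd14 the sum was 18.1 and 26.4 CPM in Ang(1-7) 2 and 3 and 23.4 to 28.8 elsewhere. Without Ang(1-7) 1, which leaves the libraries with those transcripts, the differences from PA/OA were 1.04 for Nsun3, 1.74 for Trmt2b, −1.21 for Armc5 and −1.05 for Uri1. Beyond these values, the part of the nervous system and blood transcripts in the differences was not tested.

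**Figure D3:**
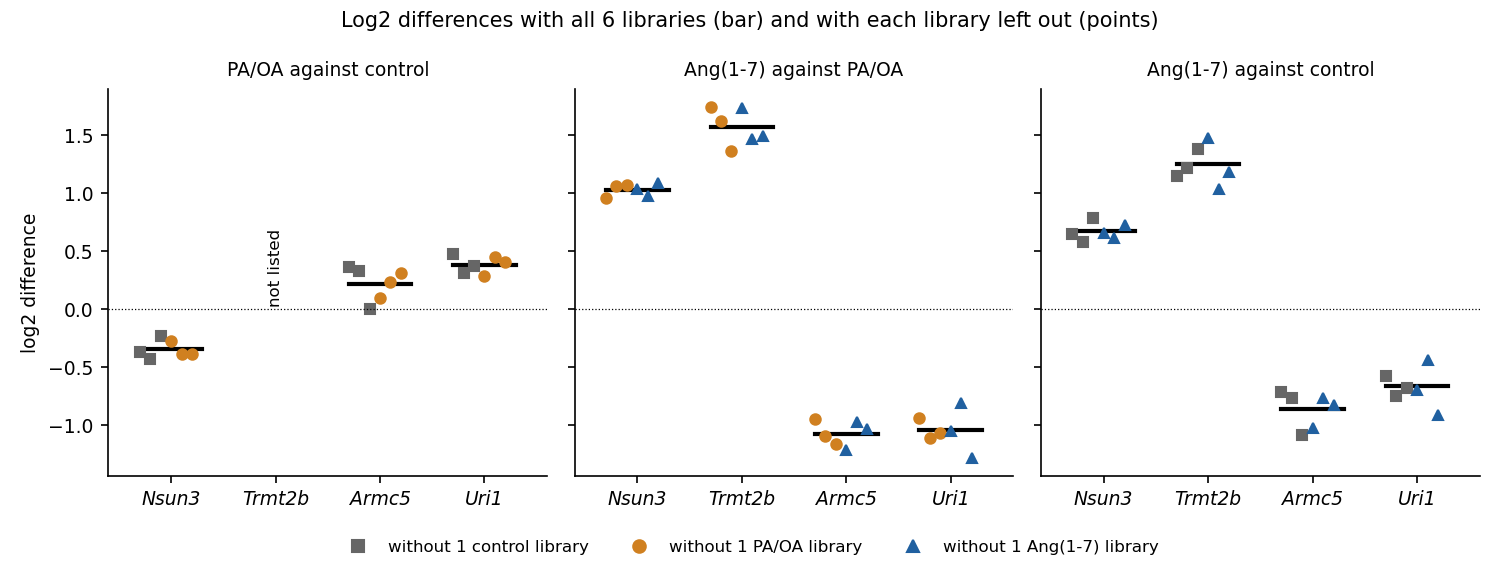
Log2 differences of the 4 genes in the 3 comparisons. The y axis is the log2 difference of the first group minus the second, black bars are the values with all 6 libraries, and points are the values with 1 library left out, coloured by its group. In both Ang(1-7) comparisons each point stays on its bar's side of 0, from 0.96 to 1.09 for Nsun3 and from −1.28 to −0.81 for Uri1 against PA/OA, while Armc5 in PA/OA against control reaches −0.00112 without control 3.

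Of 23 other genes of mitochondrial tRNA and rRNA modification tested, edgeR called 0 between Ang(1-7) and PA/OA, none had an unadjusted p under 0.05, and DESeq2 called 0. Over all genes the shares were 0.00% called by edgeR, 2.55% at an unadjusted p under 0.05 and 0.0487% called by DESeq2. Counts of 0 in this comparison, here and for the lists after it, are therefore no result about a list. Bracketed percentages beside the counts of a list, here and after, are shares over all genes. The median log2 difference of the 23 was −0.03 beside −0.01 for all genes, with a range from −1.95 (Mettl15, a mean of 18.5 counts) to 1.44 (Rpusd3, 54.3 counts). On the CPM scale of each pair's own table, used from here on, Alkbh1, which acts after NSUN3 on the same tRNA, had 54.8 ± 3.19 CPM in PA/OA and 48.9 ± 7.78 in Ang(1-7), a log2 difference of −0.16 ± 0.17. Trmt10c, a subunit of the mitochondrial RNase P that also methylates tRNA, had 102 ± 11.9 and 115 ± 24.6 CPM and a log2 difference of 0.17 ± 0.17. Both pairs overlap. In PA/OA against control 0 of 18 such genes were called by edgeR (5.05% over all genes), with 2 at an unadjusted p under 0.05 (19.4%), and DESeq2 called Nsun2 (8.64%). Against control, Ang(1-7) had 0 of 17 called by edgeR (0.245% over all genes), 2 at an unadjusted p under 0.05 (14.9%), and 0 by DESeq2 (3.79%). The RNAs these enzymes act on were not measured, since none of 26 symbols of the mitochondrial genome was listed in any table.

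The NSUN family and the cytosolic tRNA methyltransferases hold the closest relatives of NSUN3 and TRMT2B. Of 4 other NSUN genes tested in Ang(1-7) against PA/OA, edgeR called 0 (0.00% over all genes), 0 had an unadjusted p under 0.05, and DESeq2 called 0, with a range from −0.67 (Nsun6) to 0.14 (Nop2) on the log2 scale. Nsun2, which methylates cytosine in cytosolic and some mitochondrial tRNAs, had 779 ± 17.5 CPM in PA/OA and 820 ± 109 in Ang(1-7). In PA/OA against control Nsun2 lay at the threshold, with 900 ± 42.5 CPM in control and 779 ± 12.2 in PA/OA. Its log2 difference was −0.21 ± 0.06, with an adjusted p of 0.0501 in edgeR's test and 0.00987 in DESeq2. With 1 library left out the edgeR adjusted p ran from 0.0428 to 0.188, and in the fit of all 9 libraries it was 0.529. Nsun2 stands in the mitochondrial list and in the cytosolic one, so its DESeq2 call is counted in both. Nsun4, which acts on mitochondrial ribosomal RNA, had 29.0 ± 3.43 CPM in PA/OA and 28.4 ± 2.83 in Ang(1-7), which overlap. Trmt2a, the cytosolic counterpart of Trmt2b, had 1.11 ± 0.552 and 0.822 ± 0.774 CPM at a mean of 25 counts, with a log2 difference of −0.44 ± 1.26, so no difference was detectable at this depth. Of 24 cytosolic tRNA methyltransferase genes edgeR called 0 in that comparison, 0 had an unadjusted p under 0.05 and DESeq2 called 0, with a median log2 difference of −0.20. In PA/OA against control 0 of 12 were called by edgeR (5.05% over all genes), 3 had an unadjusted p under 0.05 (19.4%), and DESeq2 called 2, Nsun2 and Trmt12 (8.64%). In Ang(1-7) against control edgeR called 0 of 12 (0.245% over all genes), with 0 at an unadjusted p under 0.05 (14.9%) and 0 called by DESeq2 (3.79%).

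**Figure D4:**
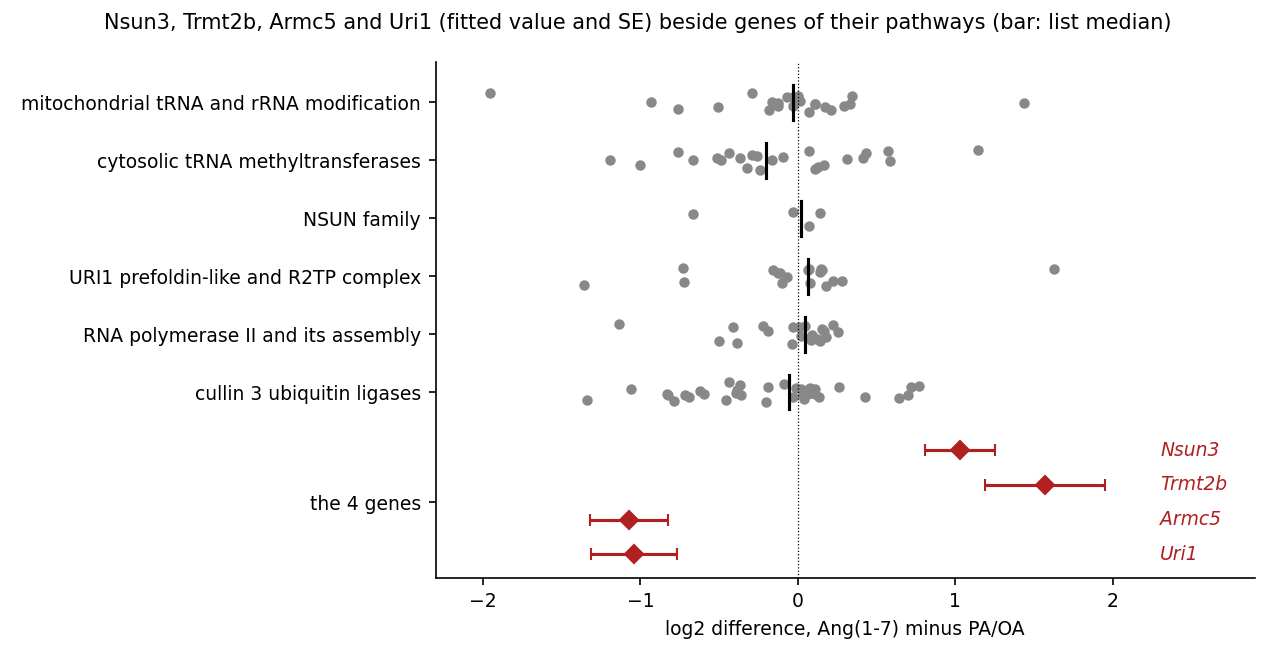
Log2 differences between Ang(1-7) and PA/OA for the 4 genes and for other genes of their pathways. The x axis is Ang(1-7) minus PA/OA on the log2 scale, grey points are genes of each list without the 4, black bars are list medians, and red diamonds are the fitted differences of the 4 genes with their SE. Nsun3 (1.03) and Trmt2b (1.57) lie to the right and Armc5 (−1.07) and Uri1 (−1.04) to the left, while list medians lie between −0.20 and 0.07. Single list genes of low count reach from −1.95 (Mettl15) to 1.63 (Tti1). The 4 genes were chosen on this contrast, so their distance from the medians is not a result.

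The list for URI1 holds the prefoldin-like and R2TP complex with its partners, and also canonical prefoldin, Hsp90aa1 and Hsp90ab1. Of 18 other genes of that list tested between Ang(1-7) and PA/OA, edgeR called 0 (0.00% over all genes). Only 1 (Tti1) had an unadjusted edgeR p under 0.05 (2.55% over all genes). DESeq2 called 0, and the median log2 difference was 0.07. Ruvbl1, an ATPase of R2TP, had 270 ± 17.1 CPM in PA/OA and 247 ± 29.5 in Ang(1-7). Rpap3, its scaffold, had 35.6 ± 5.49 and 40.3 ± 9.37 CPM, and Pdrg1, a prefoldin-like partner, 136 ± 10.9 and 122 ± 30.4 CPM. Pfdn6 had 37.8 ± 3.22 CPM in PA/OA and 22.9 ± 15.7 in Ang(1-7), a log2 difference of −0.73 ± 0.52, with 5.38 CPM in Ang(1-7) 2 and 35.6 and 27.6 in Ang(1-7) 1 and 3. Each of these pairs overlaps. Uxt, Pfdn2 and Ruvbl2 had means of 42.3, 13.0 and 94.3 counts in this table, and log2 differences of −0.72 ± 0.61, −1.36 ± 1.12 and 0.14 ± 0.57. In PA/OA against control, where Uri1 itself was not called, 2 of 14 other genes of that list fell and 0 rose in edgeR's test. Over all genes 2.24% were called lower and 2.82% higher. Pfdn1, a subunit of canonical prefoldin, went from 431 ± 25.8 to 352 ± 10.3 CPM (log2 change −0.30 ± 0.07, edgeR adjusted p = 0.0172), and Ruvbl1 from 326 ± 27.6 to 270 ± 15.8 CPM (−0.27 ± 0.08, edgeR adjusted p = 0.0499). Pfdn1 lost its call without control 2 (edgeR adjusted p = 0.0871) or PA/OA 3 (0.0848), and Ruvbl1 kept its call only without control 3 (0.0324), with up to 0.207 without the others. In the fit of all 9 libraries both lost their call (edgeR adjusted p = 0.521 for Pfdn1 and 0.459 for Ruvbl1). In Ang(1-7) against control 0 of 14 were called by edgeR (0.245% over all genes), with 2 at an unadjusted p under 0.05 (14.9%) and 0 by DESeq2 (3.79%).

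RNA polymerase II and cullin 3 ligase genes are the setting of ARMC5, and the polymerase also that of URI1. Of 21 polymerase and assembly genes tested in Ang(1-7) against PA/OA, edgeR called 0 (0.00% over all genes) and 1 (Polr2m) had an unadjusted p under 0.05 (2.55% over all genes). DESeq2 called 0, and the median log2 difference was 0.04. Polr2a, which encodes the subunit that ARMC5 targets, had 147 ± 102 CPM in PA/OA and 149 ± 70.6 in Ang(1-7), a log2 difference of 0.02 ± 0.45. It was high in 1 library of each group, PA/OA 2 at 264 CPM and Ang(1-7) 1 at 230 CPM, and the other 4 lay between 86.2 and 109 CPM. Polr2e, which encodes the subunit that URI1 binds, had 104 ± 13.4 and 122 ± 44.0 CPM. Of 36 other cullin 3 ligase genes edgeR called 0, none had an unadjusted p under 0.05 and DESeq2 called 0, with a median of −0.06. Cul3 itself had 1.85 ± 0.821 CPM in PA/OA and 1.22 ± 1.04 in Ang(1-7), at a mean of 39.7 counts. In PA/OA against control 0 of 17 polymerase genes were called by edgeR (5.05% over all genes) and 0 by DESeq2 (8.64% over all genes). An unadjusted edgeR p under 0.05 was found for 7 of the 17, beside 19.4% of all genes. Of these, Polr2b, Polr2c, Polr2f, Polr2j and Polr2l were lower in PA/OA, and Polr2a and Rprd1a were higher. There Klhl21, a cullin 3 adaptor of cell division, rose from 57.7 ± 5.49 to 77.0 ± 3.54 CPM (log2 change 0.42 ± 0.12, edgeR adjusted p = 0.0471) as 1 of 28 ligase genes called, beside 5.05% of all genes. Its call ended with each of the 6 libraries left out in turn (edgeR adjusted p = 0.0510 to 0.180) and in the fit of all 9 libraries (0.674). Against control, Ang(1-7) had 0 of 17 polymerase genes called by edgeR (0.245% over all genes), 0 at an unadjusted p under 0.05 (14.9%) and 0 by DESeq2 (3.79%). Of 28 ligase genes the counts there were 0, 1 (Ube2m) and 0.

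The genes most like each of the 4 were sought among 6536 others with a mean of at least 50 counts, by the root mean square (RMS) difference of log2 CPM, each gene centred on its own mean, over the 6 libraries of Ang(1-7) and PA/OA. This is a description over libraries that also chose the genes. Nearest to Nsun3 were Ctbs, a lysosomal enzyme of glycoprotein breakdown (RMS 0.137), Dpysl2, a microtubule-binding protein (0.179), and Nostrin, an adaptor of nitric oxide synthase (0.219), against a median of 0.594 over all genes. Ctbs went from 5.39 ± 0.742 CPM in PA/OA to 9.24 ± 0.832 in Ang(1-7). Nearest to Trmt2b were Srp54c (0.277), Ergic2 (0.348) and S100a11, a calcium-binding protein (0.353), less close than for Nsun3 and against a median of 0.881. S100a11 had 115 ± 13.5 CPM in PA/OA and 222 ± 48.1 in Ang(1-7). Nearest to Armc5 were Rpl29 (0.147), Srd5a3, a reductase of dolichol synthesis (0.190), and Hspbp1, a cofactor of HSP70 chaperones (0.193), against a median of 0.633. Nearest to Uri1 were Zfp101 (0.123), Srd5a3 again (0.127) and Opn3, an opsin (0.135), against a median of 0.673. Srd5a3 had 3.92 ± 0.391 CPM in PA/OA and 1.87 ± 0.444 in Ang(1-7), so the same gene lay close to both Armc5 and Uri1. Srp54c and Rpl29 have near-identical copies in the genome, and their counts are uncertain for that reason.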

How the data were processed

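Total RNA of 9 libraries was sequenced. Whole-number read counts per RefSeq transcript were deposited by the authors in 3 tables, each holding the 6 libraries of a pair of groups. Reads were demultiplexed with bcl2fastq, aligned with HISAT2 2.2.5 and counted with HTSeq 0.11.2, per the submitters' processing notes, which name the build hg19 although the transcripts are mouse. The sources used here give no annotation release, strand setting or rule for which transcripts a table holds, and the tables held 6936 (PA/OA against control), 14553 (Ang(1-7) against PA/OA) and 6828 (Ang(1-7) against control) transcripts. Counts of a library were compared between its tables, with 0 differences. For each transcript the authors deposited their own log2 fold change, printed only where said. Their deposited p-values, from a test that the file headers do not name, were not used.

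Counts were summed by gene symbol and tested within each table with edgeR's quasi-likelihood F test (version 4.0.16, R 4.3.3), after filterByExpr and with trimmed mean normalization. P-values were adjusted by Benjamini-Hochberg over the 6213, 9261 and 6134 genes tested, with a threshold of 0.05. DESeq2 1.42.0 was an alternative. The scripts were tested on simulated data. The SE is the log2 difference divided by the square root of F. Likeness used log2 CPM with a prior count of 2. Exons came from GENCODE vM21 and promoters from RefSeq (GRCm38.p6).

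The 4 genes, the pathway lists and the markers were chosen with earlier results of these data known. The text names the 4 genes, a set of partners and relatives (Alkbh1, Nsun2, Nsun4, Trmt2a, Trmt61b, Trmt10c, Cul3, Polr2a, Uxt, Pdrg1, Pfdn2, Pfdn6, Rpap3, Ruvbl1, Ruvbl2 and Polr2e) where tested, up to 3 called genes of lowest p per list and 3 genes most like each of the 4. Trmt61b was not among the genes tested. Genes at the ends of a list's range, genes with an unadjusted p under 0.05 and genes called by DESeq2 alone were named after their values were seen. So were the markers Mbp, Nefl, Gfap, Alb, Hnf4a, Cd14, C1qa, C1qb, Ahsg, Serpina1a, Apoa2 and Fgb. Alternatives were DESeq2, its size factors, no low-count filter, a replicate block, each library left out, transcripts singly, curated transcripts only and, added after the data were seen, all 9 libraries in one fit.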

Additional observations from a re-analysis of the deposited data

How the results depend on the processing

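Of 100 alternative values of the 4 genes in the Ang(1-7) comparisons, all 100 kept their sign and moved by less than 1 SD between replicates. The genes were chosen on these differences and the alternatives refit the same counts, so the kept signs are no separate evidence of a difference. Of 38 alternatives in PA/OA against control, 0 gave an adjusted p under 0.05 in edgeR or DESeq2, and 1 turned its sign: Armc5, at −0.001124 without control 3 and −0.001124 to 0.3672 over the libraries left out. Counts of called genes moved more. For PA/OA against control edgeR called 314 genes, DESeq2 537, a fit of all 9 libraries 33, and leaving out 1 library gave 99 (without control 1) to 397, besides 200 (control 3), 147 (PA/OA 2) and 134 (PA/OA 3 left out). For Ang(1-7) against PA/OA the 0 called became 5 in DESeq2 and 0 to 18 with 1 library left out, the 18 without Ang(1-7) 1. For Ang(1-7) against control the 15 called became 233 in DESeq2, 27 with curated transcripts, 100 in the fit of all 9 libraries and 4 to 624 with 1 library left out, with 4 without any 1 of the controls, 32 without Ang(1-7) 1, 624 without Ang(1-7) 2 and 7 without Ang(1-7) 3. The cause was not tested. With a replicate block the counts were 303, 0 and 10. Libraries that share a number did not deviate together (r of −0.0354 to 0.0343 across genes). Whether they were handled together cannot be told from this, and the labels do not say. The block moved the adjusted p of Ruvbl1 to 0.0675 and of Klhl21 to 0.0543 in edgeR. Nsun3 has no value with curated transcripts only, and Trmt2b none in the fit of all 9 libraries. Depth limits Trmt2b most, with 35 to 185 counts of its short form per library.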
